A study of Bos taurus with 15 samples.

Results

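The cells described here are those of a cattle single-cell atlas that carried transcripts of the cytokine genes *IL17A*, *IL17F* and *IL22*, which are made by lymphocytes. A cell was taken when its barcode held 500 to 4000 detected genes, fewer than 50000 unique molecular identifiers (UMIs, the count of distinct captured transcripts) and at least 2 UMIs of the 3 genes summed. The choice therefore rested on the measured counts of these 3 genes, which are given below as a description with no test, except where cells were chosen by one cytokine and another was read. In all, 839 of 132361 cells passed, a share of 0.634% with an exact binomial (Clopper-Pearson) 95% interval of 0.592 to 0.678%. Of these cytokine-positive cells, 665 had at least 1 UMI of *CD3E*, a chain of the T cell receptor complex, and 174 had none. Absence of a UMI does not show absence of the transcript, so CD3E- below means only that no *CD3E* UMI was counted.

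The libraries came from Holstein cattle and were made with a 3' droplet kit, 1 library per tissue and stage. The 11 newborn (NB) libraries covered the small intestine (duodenum, jejunum and ileum), the large intestine (cecum, colon and rectum), the stomachs (reticulum, omasum and abomasum), and the liver and parotid salivary gland of 3 calves, with no record here of which calf gave which tissue, and the 4 adult (AD) libraries covered duodenum, jejunum, cecum and colon of a single lactating cow. NB gut tissue was stripped with EDTA and trypsin before enzymatic digestion, AD gut tissue was digested directly and its red cells were lysed, and the AD duodenum and cecum were treated with another enzyme kit than the AD jejunum and colon. Stage, animal and dissociation thus changed together and cannot be told apart, and no test was made of a difference in level between an NB and an AD library.

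Interleukin 17A and 17F are secreted by type 17 helper T cells, by gamma delta T cells and by innate lymphoid cells type 3 (ILC3), and they act on epithelium and stroma to call in neutrophils and raise antimicrobial peptides. Interleukin 22 comes from the same lymphocytes and acts through its receptor on epithelial cells, where it sustains barrier and repair functions. The receptors of interleukin 23 and interleukin 1 sustain this program in both T cells and ILC3, and ILC3 carry no rearranged T cell receptor and commonly express the receptor KIT.

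Total UMIs per library ran from 17707625 to 129458578, and the median per kept cell from 3623 to 9138.5. At the edge of the rule, 587 cells held exactly 1 UMI of the 3 genes and stayed out, 170 held exactly 2, and 669 held 3 or more. A further 42 barcodes with at least 2 UMIs failed the gene limits, 27 of them for more than 4000 genes. Scrublet doublet scores placed 62 of the 839 cells among those a doublet filter would remove, and 2 cells had 40% or more mitochondrial UMIs; both sets were kept, and their removal is one of the alternatives. Of the 839 barcodes, 23 (2.74%) also occurred in another library, against 3.30% of all kept barcodes, and 1 barcode was cytokine-positive in both libraries of a pair.

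Free RNA was gauged in cells that should not transcribe these genes. In the NB cecum, 3 of 354 *EPCAM*+ epithelial cells (0.847%, median 6206.5 UMIs), 2 of 1182 *COL1A2*+ fibroblasts (0.169%) and 3 of 1017 macrophages (0.295%, median 11192 UMIs) reached 2 UMIs of the 3 genes, against 116 of 812 *CD3E*+ cells (14.3%, median 7195 UMIs). In the NB rectum these 3 types reached 0.0528 to 0.160%, against 10.2% of *CD3E*+ cells. In the AD duodenum, jejunum, cecum and colon none of the macrophages or *EPCAM*+ cells did so, the largest set being 4426 macrophages of the AD jejunum, which allows a share of up to 0.0678%. Intervals and limits given here cover counting error only.

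The cytokine-positive cells were a gut population with a strong bias to certain segments. Among all cells, the NB cecum held the most, 204 cells or 3.19% (interval 2.77 to 3.65%), followed by the NB rectum with 160 cells or 2.10% (1.79 to 2.44%). The AD cecum held 134 cells (1.39%, 1.16 to 1.64%), the AD duodenum 104 (1.00%, 0.819 to 1.21%) and the AD colon 67 (0.717%, 0.556 to 0.910%). The intervals of the cecum at either stage and of the rectum did not overlap, whereas those of the AD cecum and the AD duodenum did.

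Lower shares were found in the NB jejunum with 67 cells (0.511%), the NB duodenum with 31 (0.365%), the NB colon with 14 (0.291%), the AD jejunum with 29 (0.262%) and the NB abomasum with 17 (0.170%). The other 5 NB libraries held 1 to 4 cells each. The liver had 4 cytokine-positive cells, 3 of them among its 5082 *CD3E*+ cells (0.0590%), and the salivary gland had 2, 1 of them among 1855 *CD3E*+ cells (0.0539%). Both organs were thus rich in *CD3E*+ cells and nearly free of these transcripts. The NB ileum had none among 150 *CD3E*+ cells, which allows a share of up to 2% by the limit of 3 counts of the total (the exact 95% interval ends at 2.43%), and its 3 cytokine-positive cells were CD3E-.

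Taken as a share of *CD3E*+ cells, the NB libraries stood far above the AD libraries in 3 of the 4 paired tissues. In the duodenum, 15.7% (9.45 to 24.0%) of NB *CD3E*+ cells were cytokine-positive, against 1.38% (1.13 to 1.67%) of AD ones. The jejunum gave 15.7% (11.6 to 20.4%) against 0.676% (0.453 to 0.969%), and the cecum 14.3% (12 to 16.9%) against 1.60% (1.34 to 1.90%). In the colon the shares were 0.827% (0.333 to 1.70%) and 0.766% (0.587 to 0.980%), with overlapping intervals.

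The same order held after each cell was thinned to 2000 UMIs, with shares of 10.0% against 0.842% in the duodenum, 9.69% against 0.375% in the jejunum, 7.64% against 1.13% in the cecum and 0.927% against 0.509% in the colon. The denominator matters here, because *CD3E*+ cells made up 1.27 to 17.7% of the cells of the NB duodenum, jejunum, cecum, colon and rectum and 38.7 to 86.7% of the AD libraries. Of all cells, the NB share was below the AD share in the duodenum and colon and above it in the jejunum and cecum. The plot of shares by library shows both denominators.

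**Figure D1:**
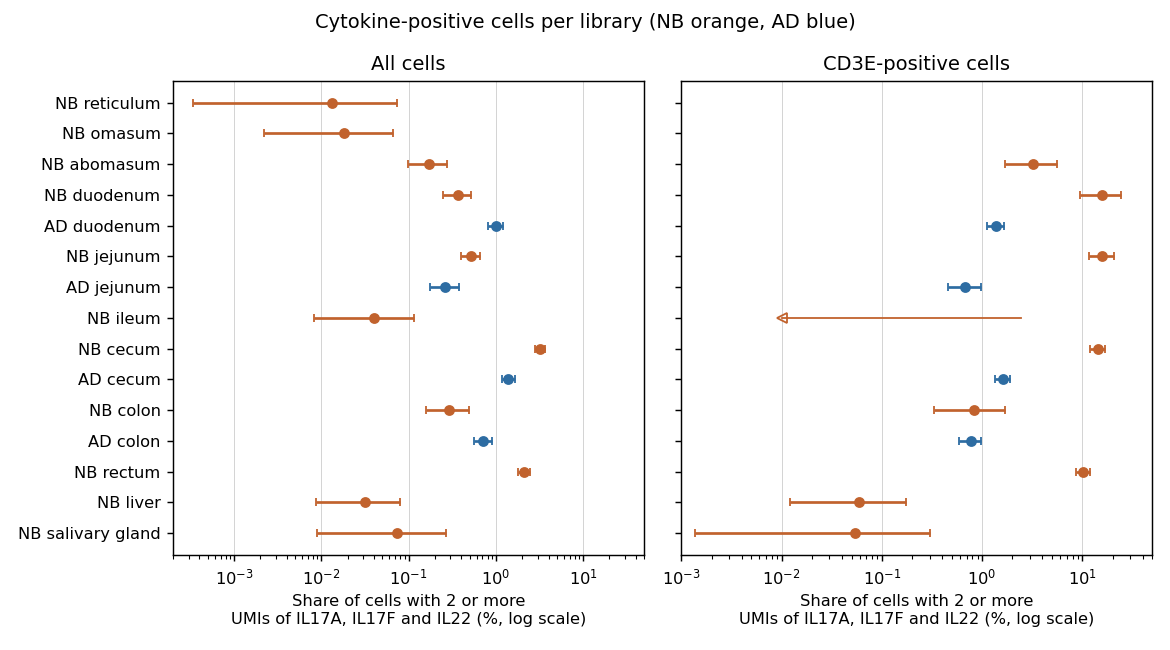
Share of cytokine-positive cells per library (x axis, percent, log scale; bars are exact binomial 95% intervals; NB orange, AD blue), among all cells in the left panel and among *CD3E*+ cells in the right panel, which shows libraries with at least 100 such cells; the open triangle marks a share of 0 in the NB ileum, its line ending at the upper bound of the exact interval, 2.43%. The NB duodenum, jejunum, cecum and rectum lie at 10.2 to 15.7% of *CD3E*+ cells and the AD libraries at 0.676 to 1.60%.

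The 3 cytokines were mixed differently from segment to segment. *IL22* gave most of the UMIs in the small intestine of both stages, with 61.3% in the AD duodenum, 79.6% in the AD jejunum, 58.7% in the NB duodenum and 78.0% in the NB jejunum. It also gave the largest share in the colon, with 68.6% in the NB and 39.5% in the AD library, where 1 cell held 73 of the 172 *IL22* UMIs. Without that cell the AD colon had 99 UMIs of *IL22*, fewer than its 144 of *IL17F*. *IL17F* led in the NB cecum with 58.7% and in the NB abomasum with 75.7%. *IL17A* led in the AD cecum with 45.1% and in the NB rectum with 43.8%. Counted by cells with a UMI, the order was another in the rectum and colon. In the NB rectum *IL17A* was in 47 of 160 cells, *IL17F* in 86 and *IL22* in 107. *IL17F* was in 12 of 14 cells of the NB colon and 43 of 67 of the AD colon, and *IL22* in 7 and 28. In the other libraries with at least 10 cytokine-positive cells, the gene with most UMIs was also in most cells. The 3' counts carry 1 tag per transcript and were not scaled to length.

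As a level in CPM, the UMIs of a gene scaled to all UMIs of the cytokine-positive cells, *IL17A* stood at 1063 (95% Poisson interval 976 to 1156) in the AD cecum and 1254 (1200 to 1310) in the NB rectum. In the other 8 libraries with at least 10 such cells *IL17A* lay between 68.6 CPM in the AD jejunum and 372 CPM in the AD colon. *IL17F* reached 1036 CPM (989 to 1083) in the NB cecum, above its 504 CPM (445 to 570) in the AD cecum. Among these 10 libraries *IL22* was highest in the NB jejunum at 2209 CPM (2065 to 2360), or 1679 CPM without the cell with most UMIs, against 730 CPM (603 to 874) in the AD jejunum. Single cells weighed heavily: 1 cell of the NB rectum alone held 569 UMIs of the 3 genes, and 1 of the NB jejunum held 230.

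Most cells showed a single cytokine gene. Across the 15 libraries, 233 cells had UMIs of *IL22* only, 209 of *IL17F* only and 56 of *IL17A* only. *IL17A* and *IL17F* occurred together without *IL22* in 84 cells, *IL17F* and *IL22* in 130, *IL17A* and *IL22* in 45, and all 3 in 82. Cells with *IL22* only made up 53.8% in the AD duodenum and 58.6% in the AD jejunum, and 9.80% in the NB cecum, where cells with *IL17F* only made up 39.7%.

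**Figure D2:**
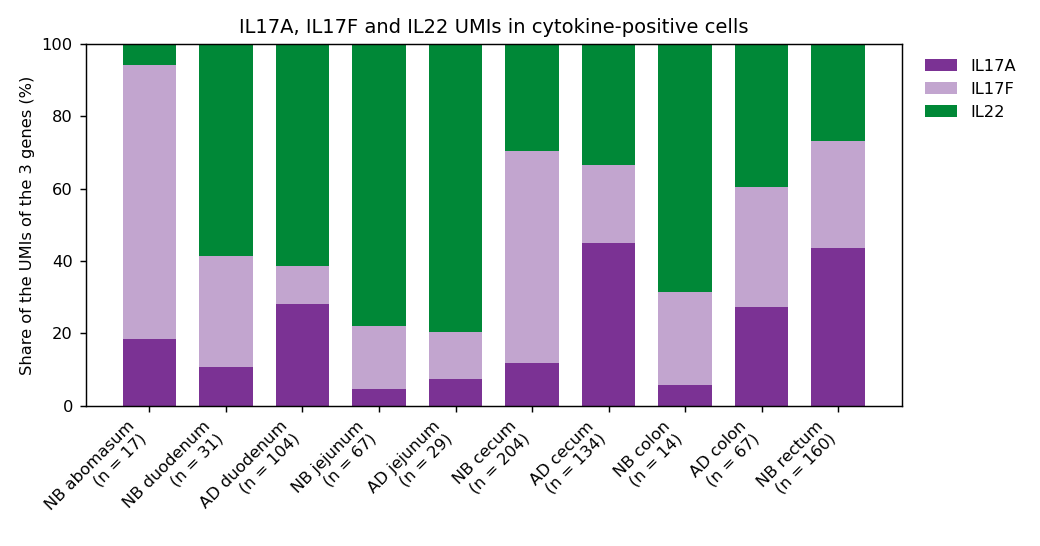
Make-up of the UMIs of *IL17A*, *IL17F* and *IL22* (y axis, percent of the 3 genes' UMIs) in the cytokine-positive cells of the 10 libraries with at least 10 of them, n being the number of cells. *IL22* takes 58.7 to 79.6% in the duodenum and jejunum of both stages and 68.6% in the NB colon, and *IL17F* takes 58.7% in the NB cecum.

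To see whether *IL22* and the *IL17* genes met in the same cells, *CD3E*+ cells were chosen by 2 or more UMIs of *IL17A* and *IL17F* alone, so that *IL22* was free. In these cells *IL22* was detected in 10 of 38 cells of the AD duodenum, 1 of 10 of the AD jejunum, 36 of 100 of the AD cecum and 6 of 43 of the AD colon. In the NB libraries it was detected in 1 of 11 cells of the abomasum, 13 of 22 of the jejunum, 40 of 98 of the cecum and 33 of 74 of the rectum. The mean share over these 8 libraries was 30.0% (range 9.09 to 59.1%), against 2.61% (0.325 to 8%) in *CD3E*+ cells with no *IL17A* or *IL17F* UMI.

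The difference of 27.4 percentage points (SD 15.8, n = 8 libraries) had the same sign in 8 of 8 libraries, with p = 0.00781 in a two-sided exact sign-flip permutation test, the smallest value 8 libraries allow, and 0.00781 after Benjamini-Hochberg adjustment over the 2 comparisons. The 4 AD libraries came from 1 cow, so the test measures the spread between libraries and not between animals, in both comparisons. With the roles turned round, *IL17A* or *IL17F* was detected in 41.0% (10.5 to 78.8%) of cells chosen by *IL22* alone, against 3.58% of *CD3E*+ cells with no *IL22* UMI. That difference was 37.4 points (SD 20.3), with the same sign in 8 of 8 libraries (exact permutation p = 0.00781, adjusted 0.00781). Both comparisons read the cells that hold *IL22* together with an *IL17* gene, so the second is not independent of the first. With cells thinned to 2000 UMIs, 5 libraries were left for the first comparison and gave 23.3 points in 5 of 5 libraries, with an exact permutation p of 0.0625, the smallest 5 libraries allow.

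The *CD3E*+ cytokine-positive cells were then compared with the *CD3E*+ cells of the same libraries that had no UMI of the 3 genes. UMIs were summed per library and class in the 9 libraries with at least 10 cells of each (12 to 137 cytokine-positive and 89 to 8045 cytokine-negative cells) and tested with edgeR with the library as a block. Of 6916 genes tested, 263 were higher (3.8%) and 407 lower (5.88%) in the cytokine-positive cells at an adjusted p under 0.05. The libraries share animals, so the spread tested is between libraries and not between animals.

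Genes of the type 17 program were mostly higher. Of 20 genes in that list, 13 passed the count filter, 11 were higher and none was lower, with a median log2 fold change of 2.17, where the median over all tested genes was -0.03. *IL26*, a further cytokine of type 17 cells, rose by 3.81 ± 0.23 (SE) on the log2 scale (adjusted p = 2e-08). *IL1R1*, the interleukin 1 receptor, rose by 3.68 ± 0.28 (adjusted p = 3.15e-07) and *IL23R*, the interleukin 23 receptor chain, by 3.04 ± 0.31 (adjusted p = 5.28e-06).

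The chemokine receptor *CCR6* (2.53 ± 0.36), the transcription factor *ZBTB16* (2.25 ± 0.25), the cytokine *CSF2* (2.17 ± 0.32) and the nuclear receptor *RORA* (1.47 ± 0.18) also rose, as did *BLK*, *IRF4* and *BATF*, the calls of the last 2 being lost without the NB jejunum, AD cecum or NB rectum, that of *IRF4* also without the AD colon and that of *BATF* also without the AD duodenum. *AHR*, the aryl hydrocarbon receptor, was at 0.69 ± 0.23 and *STAT3* at 0.34 ± 0.16, and neither passed. *IL1R1* was seen in 19.4 to 87.9% of the cytokine-positive cells of the 9 libraries and in 0.989 to 10.1% of the cytokine-negative ones, with no overlap between the classes.

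Of the ILC3 list, which shares *IL1R1*, *IL23R* and other genes with the former, 7 of 9 tested genes were higher and none lower. Its risers outside that overlap were *LTB*, which encodes lymphotoxin beta (2.31 ± 0.18), *IL7R* (1.2 ± 0.20), the transcriptional regulator *ID2* (0.93 ± 0.11) and *KIT* (0.84 ± 0.22, adjusted p = 0.0169), whose call was lost without the AD cecum or the NB cecum. *TOX* and *TOX2* were at -0.03 and 0.09. Of the regulatory T cell list, 4 of 6 tested genes were higher, namely *ICOS* (2.18 ± 0.24), *IL2RA* (1.61 ± 0.20), *TNFRSF18* (1.60 ± 0.26) and *TNFRSF4* (1.30 ± 0.25), which are also found on other activated T cells. *FOXP3* was not among those tested.

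Of 13 activation and immediate early genes tested, 7 were higher and none lower, led by *TNFAIP3* (1.64 ± 0.18) and *DUSP1* (1.15 ± 0.27). In the 5 NB libraries alone 1 of the 13 was called, at a median of 0.47, and in the 4 AD libraries alone 7 were, at 0.61, against a median of 0.59 over the 9 libraries. Over all genes, 202 of 6933 tested were higher in the NB libraries alone and 206 of 10825 in the AD libraries alone. These counts do not show a difference between the stages. Among other cytokines, *TNF* (0.72 ± 0.20) and *CSF1* (0.90 ± 0.23) rose beside *LTB*, while *XCL1* (-2.56 ± 0.44), *CCL5* (-2.40 ± 0.22), *CCL4* (-2.22 ± 0.42) and *CCL3* (-2.07 ± 0.51), chemokines typical of cytotoxic lymphocytes, fell. The call of *TNF* was lost when the NB abomasum, AD duodenum, AD jejunum, AD cecum or NB rectum was left out, and that of *CSF1* without the NB jejunum or NB cecum. In the 5 NB libraries alone *CCL3* and *CCL4* were not called, and *CCL3* was also not called at 3 or more UMIs. In the NB rectum *CCL3* was higher in the cytokine-positive cells, at a log2 ratio of 1.04. *IFNG*, the type 1 cytokine, was at -0.57 ± 0.34 and did not pass.

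The cytotoxic and natural killer list went the other way, with 8 of 11 tested genes lower, none higher and a median of -1.43. *KLRK1*, an activating natural killer receptor, fell by 2.27 (SE 0.28), *GZMA* by 2.04 (SE 0.39), *CTSW* by 1.49 (SE 0.30), *NKG7* by 1.46 (SE 0.25) and *TBX21*, the type 1 lineage factor, by 1.30 (SE 0.33). The name *GZMB* is carried by 2 gene identifiers, so that reads of near-identical copies may be split: ENSBTAG00000010057 was lower (-2.28 ± 0.45, adjusted p = 0.00254) and ENSBTAG00000053015 was not called (-0.10 ± 0.47). The coreceptor chains *CD8A* (-1.98 ± 0.42) and *CD8B* (-1.71 ± 0.33) fell, *CD40LG*, the helper T cell ligand, rose (1.36 ± 0.18), and *CD4* was not called (0.59 ± 0.42, adjusted p = 0.504).

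In the 5 NB libraries alone neither *CD8A* nor *CD8B* was called, but both lay below 0. In the fit with a term for stage they were at -1.52 and -1.17 in NB and at -2.17 and -2.09 in AD, and neither difference between the stages passed (adjusted p = 0.899 and 0.752 in edgeR). Of the homing list, the integrins *ITGA1*, *ITGAE* and *ITGB7* and the chemokine receptor *CXCR3* fell, while *CXCR6* rose by 0.68 (SE 0.14). Of the T cell receptor list, *CD247* (-0.96 ± 0.16) and *CD3D* (-0.83 ± 0.20) fell and *THEMIS* (0.69 ± 0.20) rose, with the other 9 of the 12 tested not called. The call of *THEMIS* was lost without the NB duodenum, AD jejunum, NB jejunum, AD cecum or NB cecum, and in the libraries of either stage alone.

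Several of the largest changes lay outside these lists. Among genes with one sign in all 9 libraries, those with the largest rise included *HBG* (4.29 ± 0.37), annotated as a gamma globin gene, *IL26*, *IL1R1*, the growth factor gene *FGF9* (3.44 ± 0.27), *IL23R*, *C20orf202*, the prostaglandin D2 receptor gene *PTGDR2* (2.83 ± 0.30), the protease gene *FURIN* (2.73 ± 0.15) and the proteoglycan gene *BGN* (2.73 ± 0.32). *HBG* was detected in 12.9 to 75.9% of cytokine-positive and 0.726 to 7.87% of cytokine-negative cells of the 9 libraries. The summed level of the 4 erythroid genes on the list was 0 to 6.93 CPM in the former and 0 to 8.27 CPM in the latter. Globin genes are a family of similar copies, so the assignment of these reads to *HBG* is uncertain.

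The largest falls included those of *CD7* (-3.92 ± 0.29), a surface molecule of T and natural killer cells, *ADGRG1*, *FCER1G* (-3.26 ± 0.25), the Fc receptor gamma chain, *CD84*, *PRKAR2B*, *COX8B*, *CA2*, *KRT19* and *AFAP1L2*. *CD7* was detected in 0 to 9.09% of cytokine-positive cells of the 9 libraries and 11.7 to 62.0% of cytokine-negative ones.

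Markers of other cell types moved with this comparison. All 3 epithelial, 5 of 5 macrophage and 5 of 5 fibroblast genes tested were lower in the cytokine-positive cells. The 1 endothelial gene tested, *PECAM1*, was higher (1.17 ± 0.36, adjusted p = 0.0492, higher in 7 of 9 libraries), a call lost when any 1 of 7 libraries was left out, with 0.58 without the NB cecum. The summed macrophage level was 15.2 to 564 CPM against 151 to 6175 CPM in cytokine-negative cells, the summed epithelial level 4.2 to 259 CPM against 19.3 to 736 CPM, and the summed fibroblast level 0 to 740 CPM against 0.440 to 1659 CPM. Both classes were also required to hold a *CD3D* UMI, a choice made after the data were seen. It left 6 libraries, the 4 AD ones and the NB cecum and rectum. Of 8418 genes tested, 138 were then higher and 180 lower. None of these macrophage and epithelial genes was called, and the fibroblast genes are not reported for this choice. Called in the same direction as before were 7 of the 13 type 17 genes, 6 of the 9 ILC3 genes and 7 of the 11 cytotoxic genes.

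The classes also differed in depth, most in the NB rectum with a median of 10582 UMIs per cytokine-positive cell against 5719.5. Against deeper cytokine-negative cells the counts were 310 higher and 371 lower, and 10 of the 13 type 17 genes were still higher. Of the 11 cytotoxic genes 5 were then lower, and of the 12 T cell receptor genes 4 were higher and 1 lower, where the comparison above had 1 and 2. Among 7 of 82 named genes that were no longer called, CD3D (ENSBTAG00000006452) was then at -0.55 with an adjusted p of 0.0843 in edgeR, CTSW (ENSBTAG00000020773) at -1.11 with 0.134 and TBX21 (ENSBTAG00000014199) at -1.01 with 0.0703.

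**Figure D3:**
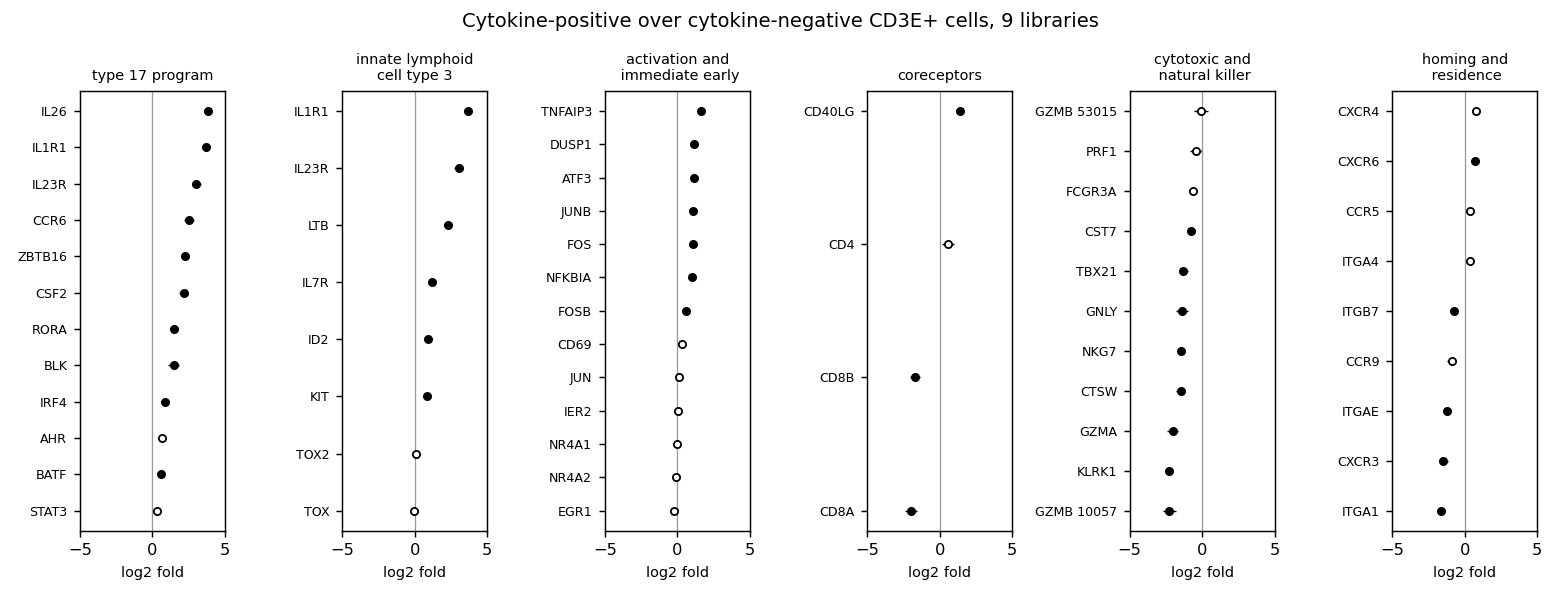
Log2 fold change ± SE (x axis) of the genes shown from 6 lists in cytokine-positive over cytokine-negative *CD3E*+ cells of 9 libraries, filled points at an adjusted p under 0.05 in edgeR; the 2 *GZMB* identifiers are marked by their last 5 digits. The type 17 and ILC3 lists lie at or right of 0, and 8 of the 11 cytotoxic genes are called left of it.

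The *CD3E*+ cytokine-positive cells did not look the same at the 2 stages. In the AD duodenum, jejunum, cecum and colon, *CD4* was detected in 69.6, 75.9, 66.7 and 82.3% of them and *CD3D* in 88.2, 89.7, 87.1 and 85.5%. In the NB abomasum, duodenum, jejunum and cecum, *CD4* was detected in 0, 5.88, 0 and 4.31% and *CD3D* in 16.7, 35.3, 18.2 and 19.8%. The AD and NB values of these libraries did not overlap for either gene.

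*KIT* ran the opposite way, with 75.0, 94.1, 54.5 and 74.1% in these NB libraries and 2.94, 3.45, 18.2 and 8.06% in the AD ones. Relative to cytokine-negative *CD3E*+ cells, *KIT* was at a log2 fold change of 1.05 in NB and 0.51 in AD in the fit with a term for stage. That difference was not called (adjusted p = 0.791 in edgeR), so the gap in *KIT* is not shown to be particular to the cytokine-positive cells. *IL1R1* was detected in 41.7, 76.5, 68.2 and 87.9% of the NB cells and 34.3, 31.0, 28.8 and 19.4% of the AD cells. At equal depth these 4 NB libraries and the AD ones still did not overlap for *CD4*, *CD3D* and *KIT*. Thinned to 2000 UMIs, *CD4* was at 42.9 to 63.9% in AD and 0 to 1.74% in NB, *CD3D* at 46.4 to 65.6% and 7.83 to 23.5%, and *KIT* at 2.00 to 13.9% and 23.5 to 33.3%.

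In the NB abomasum, duodenum, jejunum and cecum, 82.4 to 100% of the *CD3E*+ cytokine-positive cells had no UMI of *CD4*, *CD8A* or *CD8B*, against 16.1 to 25.8% in the AD libraries. The cytokine-negative *CD3E*+ cells of the same NB libraries already had few *CD4*+ cells (3.97 to 22.9%), but *CD3D* was detected in 42.7 to 60.8% of them. In the cytokine-negative *CD3E*+ cells of the AD libraries *CD3D* was detected in 77.9 to 90.0%, so these cells also differed between the stages. *IL7R*, the interleukin 7 receptor, was detected in 68.2 to 83.3% of the NB cells and 62.9 to 83.3% of the AD cells.

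In the NB rectum, *CD3D* at 74.5% and *CD4* at 44.5% of its 137 *CD3E*+ cytokine-positive cells lay between the values of the other NB libraries and the AD ones. *KIT* at 15.3% lay within the AD range and *IL1R1* at 56.9% within the NB range. Thinned to 2000 UMIs, *CD3D*, *CD4* and *KIT* were at 33.8, 17.6 and 7.35% in the rectum, so *KIT* did not separate all NB from all AD libraries. *MKI67*, a gene of dividing cells, was detected in 49.6% of these cells and in 28.4% of its cytokine-negative *CD3E*+ cells, with 28.5% of the former positive for both *CD4* and *MKI67*. Thinned to 2000 UMIs, *MKI67* was at 30.1% in the cytokine-positive and 17.4% in the cytokine-negative cells of the rectum. In the other 8 libraries of the comparison *MKI67* was detected in 0 to 19.0% of cytokine-positive and 1.27 to 26.0% of cytokine-negative *CD3E*+ cells. Over the 9 libraries MKI67 (ENSBTAG00000002444) was the 1 of 7 tested cell cycle genes that was called, and it was lower in the cytokine-positive cells (-1.33 ± 0.41, adjusted p = 0.0477 in edgeR, lower in 7 of 9 libraries). The call was lost when any 1 of the 8 libraries other than the NB rectum was left out (adjusted p 0.0547 to 0.115 in edgeR).

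*CCR9*, the receptor that directs lymphocytes to the small intestine, was detected in 64.7% of the AD duodenum cells, 37.9% of the AD jejunum cells, 0.758% of the AD cecum cells and in none of the 62 AD colon cells, which allows a share of up to 4.84%. The cytokine-negative *CD3E*+ cells followed the same order, at 58.7, 27.9, 4.41 and 1.98%. *CCL20*, the ligand of *CCR6*, was detected in 37.9% of the cytokine-positive cells of the AD cecum, against 6.90 to 11.3% in the other AD libraries and 1.19% of the cytokine-negative cells of the AD cecum.

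**Figure D4:**
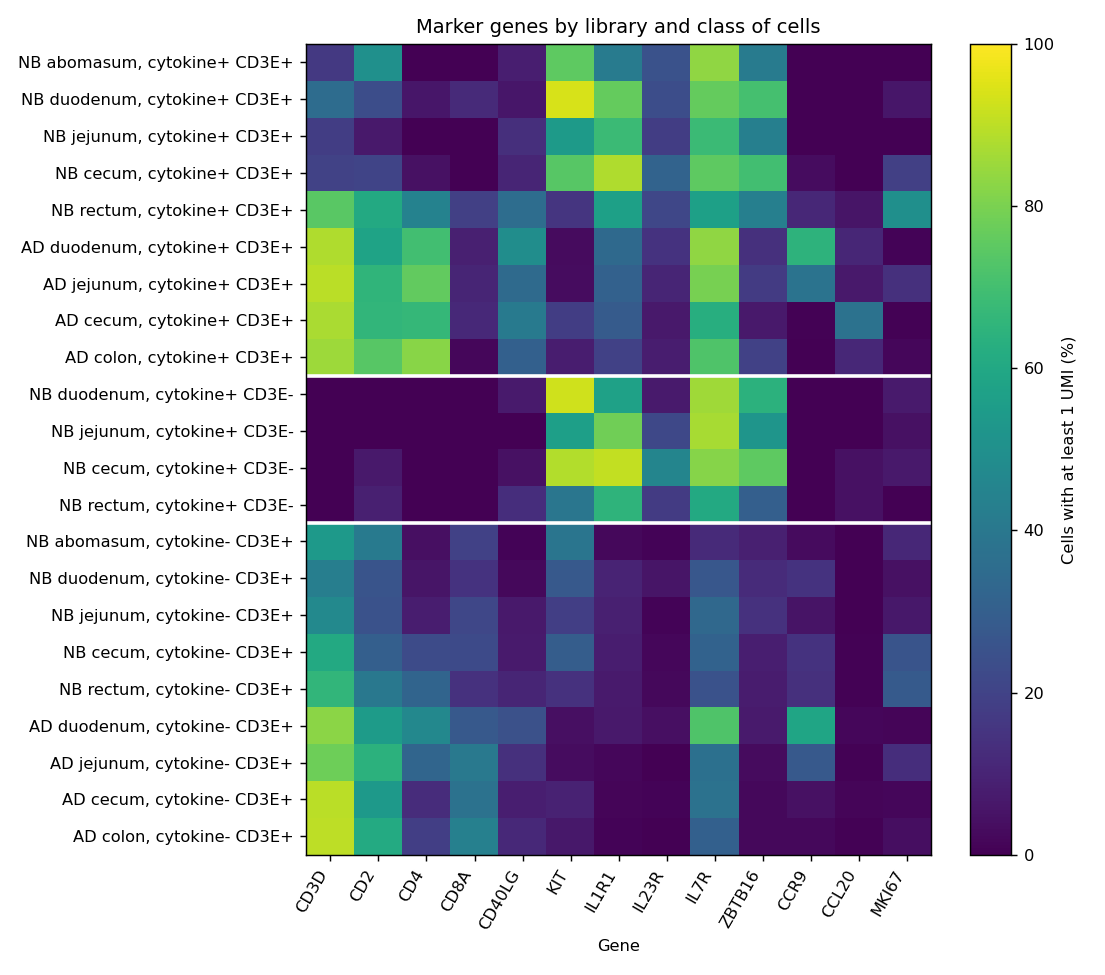
Share of cells with at least 1 UMI (color scale, percent) of 13 genes (x axis) by library and class (y axis): *CD3E*+ cytokine-positive cells on top, CD3E- cytokine-positive cells of the NB libraries with at least 10 of them in the middle, *CD3E*+ cytokine-negative cells at the bottom. *CD3D* and *CD4* fill the AD rows and *KIT* and *IL1R1* most of the NB rows, and the CD3E- cells show no UMI of *CD3D*, *CD4* or *CD8A*.

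The CD3E- cytokine-positive cells came mostly from the NB libraries. They made up 165 of the 505 NB cytokine-positive cells (32.7%) and 9 of the 334 AD ones (2.69%). By library they were 14 of 31 in the NB duodenum, 23 of 67 in the NB jejunum, 88 of 204 in the NB cecum and 23 of 160 in the NB rectum, and 2 of 104, 0 of 29, 2 of 134 and 5 of 67 in the AD duodenum, jejunum, cecum and colon.

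As a class they carried lymphocyte genes and genes of the type 17 program. The class also holds the *EPCAM*+, *COL1A2*+ and macrophage cells used above to gauge free RNA, since those had no *CD3E* UMI. In the NB cecum 3, 2 and 3 such cells reached 2 UMIs, and in the NB rectum 1 of each type. In the NB jejunum 2 *EPCAM*+ cells and 1 *COL1A2*+ cell did so, and in the NB duodenum 1 *EPCAM*+ cell. They were not taken out. In the NB duodenum, jejunum, cecum and rectum no CD3E- cell had a UMI of *CD3D*, *CD3G*, *CD4*, *CD8A* or *CD8B*, which allows shares of cells with a UMI of up to 21.4, 13.0, 3.41 and 13.0%. These limits cover the counting of cells only, not transcripts missed at this depth. Their median depth was 5692, 5442, 8187.5 and 5484 UMIs, against 6627, 5359.5, 8284.5 and 10582 UMIs in the *CD3E*+ cytokine-positive cells. *IL1R1* was detected in 57.1, 78.3, 90.9 and 65.2% of them, *KIT* in 92.9, 56.5, 88.6 and 39.1%, *IL7R* in 85.7, 87.0, 81.8 and 60.9% and *ID2* in 100, 95.7, 97.7 and 91.3%. *LCK*, the T and natural killer cell kinase, was detected in 60.9 to 85.7% and *CD247*, a signalling chain that natural killer cells also use, in 43.5 to 50%. Of these genes, *KIT* varied most between the 4 libraries and was lowest in the rectum.

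When the CD3E- cells were tested against the *CD3E*+ cytokine-positive cells of the same 4 NB libraries, 1 of 2381 genes passed (0.042%), with 109 at an unadjusted p under 0.05. It was the unnamed gene ENSBTAG00000034609, lower in CD3E- cells (-2.68 ± 0.27 on the log2 scale, adjusted p = 0.0350 in edgeR), and was singled out for being the only call. The 109 genes were a smaller share of the 2381 than the 0.05 expected with no difference. In counts simulated for these classes, the test recovered 40 of 100 genes changed 2-fold and 98 of 100 changed 4-fold. A gene that was not called is not shown to be alike in both classes. DESeq2 called 5 genes. Left out in turn, the NB duodenum, jejunum and cecum left no call and the NB rectum left 7, 3 higher and 4 lower.

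*KIT*, *IL1R1* and *IL7R* were at log2 differences of 0.56, 0.29 and 0.47, none of them called. The 4 genes tested from the T cell receptor list had a median of -0.57, and none was called. They were *ZAP70* at -1.90 (lower in 4 of 4 libraries, adjusted p = 0.497 in edgeR), *LAT* at -0.93, *LCK* at -0.22 and *CD247* at 0.11. The 3 cytokines were described without a test: *IL17F* was at 583, 709, 1008 and 696 CPM in the CD3E- cells of the NB duodenum, jejunum, cecum and rectum, and at 415, 371, 1056 and 855 CPM in the *CD3E*+ cells. Without the cell with most UMIs of each class these values were 334, 474, 967 and 507 CPM and 213, 288, 1021 and 770 CPM. *IL22* was at 3379 CPM in CD3E- cells of the NB jejunum against 1558 CPM, but 1 cell held 220 of the 481 UMIs of the former, which stood at 1905 CPM without it (1361 CPM in the *CD3E*+ cells without theirs). In the NB duodenum *IL22* was at 1351 CPM in CD3E- cells against 652 CPM, or 1065 and 558 CPM without the cell with most UMIs of each class. It was at 520 CPM against 522 CPM in the NB cecum, and at 953 CPM against 754 CPM in the NB rectum, where the order turned without those cells (539 and 698 CPM). *IL17A* was at 39.7 CPM in CD3E- cells of the NB duodenum, from 3 UMIs of 1 cell, against 254 CPM in *CD3E*+ cells, where 1 cell held 24 of the 30 UMIs (53.3 CPM without it), and at 476 CPM against 1325 CPM in the NB rectum. In the NB jejunum and cecum *IL17A* was at 84.3 CPM against 156 CPM and 162 CPM against 241 CPM. Values without the cell with most UMIs were computed after the data were seen.

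Whether cytokine-positive cells departed from their *CD3E*+ neighbors in the same way at both stages was tested with an interaction term over the 9 libraries, an analysis added after the data were seen. Of 6916 genes, 39 differed (0.564%), 16 with a larger log2 fold change in NB and 23 with a larger one in AD, and 664 had an unadjusted p under 0.05. *IL1R1*, at 3.44 in NB and 3.95 in AD, was not among them, and a gene that was not called is not shown to change alike at both stages. The 4 AD libraries share 1 cow, so this too measures the spread between libraries. The tissues also differed between the stages, with abomasum and rectum only in the NB set and colon only in the AD set. The fit had no term for tissue, so stage and set of tissues cannot be told apart in it.

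Of the lists, 3 of 11 cytotoxic genes, 2 of 11 other cytokines and 1 of 4 coreceptors differed. *PRF1*, the pore-forming protein of killer cells, was at 0.98 in NB and -1.81 in AD (difference 2.78 ± 0.47, adjusted p = 0.00839). *CTSW*, *FASLG* and *GZMB* (ENSBTAG00000053015) also lay higher in NB, whereas *CD4* (-1.05 in NB, 1.55 in AD, adjusted p = 0.0392) and *IL10* (-0.77 and 2.56, adjusted p = 0.0208) lay higher in AD. The other *GZMB* identifier, ENSBTAG00000010057, lay lower in NB (-3.27 in NB, -1.81 in AD) and was not called (adjusted p = 0.695 in edgeR). By library, the log2 ratio of *IL10* was 1.43 in the NB and 0.39 in the AD duodenum, the other way round. It was -2.47 and 0.85 in the jejunum and -1.13 and 3.28 in the cecum. The log2 ratio of *CD4* was 0.11 in the NB and 0.40 in the AD duodenum, -2.65 and 1.21 in the jejunum and -2.04 and 2.53 in the cecum. In the NB abomasum and rectum *CD4* was at -2.22 and -0.007, and in the AD colon at 2.06. The levels behind *FASLG*, the death ligand, were 102, 144, 109 and 64.4 CPM in cytokine-positive cells of the NB duodenum, jejunum, cecum and rectum against 37.2, 54.3, 19.1 and 17.6 CPM in cytokine-negative ones, while the AD libraries had 31.5 to 42.0 CPM against 33.2 to 47.9 CPM. In the NB abomasum *FASLG* rested on 1 UMI in the 12 cells.

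The count depended on single libraries. It was 15 without the AD cecum, 18 without the AD colon, 22 without the NB cecum and 121 without the NB rectum, and 27 to 45 without any of the others.

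**Figure D5:**
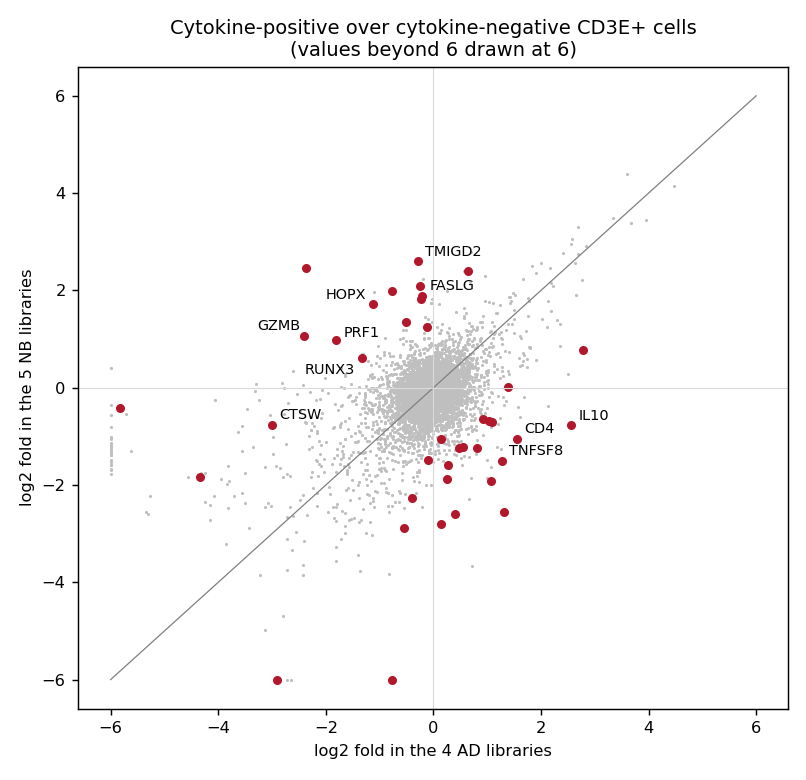
Log2 fold change of cytokine-positive over cytokine-negative *CD3E*+ cells in the 4 AD libraries (x axis) and the 5 NB libraries (y axis), 1 point per gene, with the 39 genes that differ between the stages in red, values beyond 6 drawn at 6, and the diagonal marking equal change. *PRF1*, *FASLG* and *GZMB* (ENSBTAG00000053015) lie above the diagonal and *CD4* and *IL10* below it.

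Levels in the *CD3E*+ cytokine-positive cells themselves were set side by side in the duodenum, jejunum and cecum, with 1 library per stage and hence no test. Of 2433 genes that reached 50 CPM at 1 of the stages in every tissue, 122 (5.01%) were more than 2-fold higher in NB in all 3 tissues and 181 (7.44%) were more than 2-fold higher in AD, on the log2(CPM + 5) scale. Part of this was shared with other *CD3E*+ cells: 51 of the 122 and 61 of the 181 passed the same limit the same way in the cytokine-negative cells.

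Of 11 genes of the T cell receptor list compared, 8 were higher in AD and none in NB, among them *CD247*, *CD2*, *CD27*, *ZAP70*, *CD3D*, *CD5* and *LAT*, and of the coreceptors 3 of 3 were higher in AD. The summed level of the T cell receptor list had a median of 1794 CPM over the NB and 5000.5 CPM over the AD libraries in cytokine-positive cells and of 1973 and 5583 CPM in cytokine-negative ones, so this gap was not particular to the former. *CD4* was at 321, 399 and 380 CPM in the AD duodenum, jejunum and cecum and at 16.9, 0 and 17.1 CPM in the NB ones. *CCL20* was at 71.4, 93.5 and 775 CPM in AD, with no UMI in the 3 NB libraries, where 3 UMIs would have been 25.4, 11.7 and 2.86 CPM. *GZMA* was at 54.6, 137 and 154 CPM in AD with no UMI in NB, and the death receptor *FAS* and the lysophosphatidic acid receptor *LPAR6* were the other 2 of the 5 largest AD differences.

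The largest NB differences were of *ZFAND2A* and *BAG3*, genes of the heat shock response, and of the matrix genes *BGN*, *SPARC* and *SPARCL1*. *BAG3* was at 618, 1265 and 1468 CPM in NB cytokine-positive cells and at 23.1, 6.24 and 25.6 CPM in AD ones. In cytokine-negative cells *BAG3* was at 204, 600 and 760 CPM in NB and 16.5, 19.6 and 6.46 CPM in AD, so the stage difference was not particular to the cytokine-positive cells. Markers of stromal cells differed in the same way: the summed fibroblast level was 25.4 to 740 CPM in the cytokine-positive *CD3E*+ cells of the 5 NB libraries tested above and 0 to 1.97 CPM in the 4 AD ones, and the summed endothelial level 38.2 to 195 CPM and 5.91 to 20.8 CPM. In cytokine-negative cells these sums were 188 to 1659 CPM against 0.440 to 170 CPM and 94.9 to 219 CPM against 7.35 to 13.8 CPM. Their part in the result was not tested. Of 13 activation and immediate early genes compared, 4 were higher in NB (*NR4A1*, *EGR1*, *TNFAIP3* and *ATF3*) and none in AD. The summed level of the whole list had a median of 10148 CPM over the 5 NB and 8128 CPM over the 4 AD libraries in cytokine-positive cells. In cytokine-negative cells it was 7730 and 4157 CPM, so the gap in the sum was not particular to the cytokine-positive cells. Of the 10 type 17 genes compared, *ZBTB16* was higher in NB and *CCL20* in AD.

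The partners of these cytokines were read in the neighboring cells. *IL22RA1*, the receptor chain that makes epithelium responsive to interleukin 22, was at 23.0 and 23.1 CPM in *EPCAM*+ cells of the AD cecum and colon, 11.9 CPM in the AD jejunum, and 20.3, 16 and 15.6 CPM in the NB cecum, jejunum and duodenum. It was lower in *EPCAM*+ cells of the NB colon, rectum and ileum (5.38 to 6.14 CPM) and at 0.109 to 0.324 CPM in the NB reticulum, omasum and abomasum. In *CD3E*+ cells of every library with at least 50 of them *IL22RA1* stayed at or below 3.39 CPM.

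*IL23A*, a subunit of the cytokine that sustains type 17 cells, was at 52.6 CPM in macrophages of the NB cecum and 70.0 CPM in those of the NB rectum, and at 0 to 1.68 CPM in AD macrophages. Macrophages of the NB ileum, which held 3 cytokine-positive cells, had 31.9 CPM of *IL23A*. *IL1B*, which signals through *IL1R1*, was at 597 and 1389 CPM in the same NB macrophages and at 34.3 to 77.3 CPM in the AD ones. These are values of 1 library each and carry no test. Macrophages of the remaining NB libraries are not reported here, and a link with the share of cytokine-positive cells was not tested.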

How the data were processed

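Single-cell RNA of 15 cattle libraries was counted with Cell Ranger 3.1.0 on ARS-UCD1.2, per the labels and the study's methods, and the authors deposited raw UMI counts for 27270 genes without normalization. All comparisons start from those counts. Barcodes with 500 to 4000 genes and fewer than 50000 UMIs were kept. Cytokine-positive cells had at least 2 UMIs of *IL17A*, *IL17F* and *IL22* summed. These cells and the 24 gene lists (197 genes, 192 in the files) were chosen with earlier results of these data known. Groups came from the stage and tissue labels.

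UMIs were summed per library and class, for libraries with at least 10 cells in each, and tested with edgeR 4.0.16 (R 4.3.3, TMM, filterByExpr, quasi-likelihood test, library as a block, Benjamini-Hochberg adjustment at 0.05). DESeq2 1.42.0 was an alternative. Shares were given exact intervals with scipy 1.17.1 and doublet scores came from Scrublet in scanpy 1.11.5 (the share removed as doublets in an alternative rose with the number of cells in a library). The edgeR steps were tested on simulated data. Stages were set side by side as log2 ratios of CPM + 5 with a 2-fold limit. Other cell types were taken by UMIs of *EPCAM*, *COL1A2*, macrophage genes or B cell genes in cells without *CD3E*. Named genes were the 3 cytokines, *CD3E*, the list genes, the 10 called genes with the largest change each way and one sign in every library, up to 8 each way between the CD3E classes, and the 5 largest each way between stages. The gamma delta receptor genes *TRDC*, *TRGC1* and *TRGC2* were not matched by symbol and were not analysed here. Some genes that the naming rule takes, also from the lists, are not reported here; the counts include them.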

Additional observations from a re-analysis of the deposited data

Results flagged for a closer look

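The change from cytokine-negative to cytokine-positive *CD3E*+ cells differed between NB and AD libraries for 6 of the list genes, by the interaction term in edgeR over 9 libraries. The NB minus AD difference of the log2 fold changes was 2.24 for *CTSW* (-0.76 in NB, -3.00 in AD, adjusted p = 0.00612) and 2.09 for *FASLG* (1.89 and -0.20, adjusted p = 0.00612). It was 2.78 for *PRF1* (0.98 and -1.81, adjusted p = 0.00839) and 3.48 for *GZMB* (ENSBTAG00000053015, 1.07 and -2.41, adjusted p = 0.0129). For the other *GZMB* identifier, ENSBTAG00000010057, it was -1.46 (-3.27 and -1.81) and was not called (adjusted p = 0.695 in edgeR).

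The difference ran the other way for *IL10*, at -3.33 (-0.77 and 2.56, adjusted p = 0.0208), and for *CD4*, at -2.60 (-1.05 and 1.55, adjusted p = 0.0392). Stage, animal, dissociation and set of tissues cannot be told apart in these values, and the 4 AD libraries came from 1 cow.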

How the results depend on the processing

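The edgeR fits and the sign-flip test pair the classes within each library. Libraries were not paired across stages in any test, since the calves and the cow are different animals. In the comparison of levels without a test they were matched by tissue. Without the low-count filter 1222 genes were lower in cytokine-positive cells, and 97 were called between the CD3E classes, where DESeq2 called 5. With *CD3D* required as well, a choice made after the data were seen, 138 genes were higher and 180 lower, and 3 called genes changed sign, *C1QA* to 0.009, *C1QB* to 0.37 and *C1QC* to 0.13. Over all alternatives, 1492 of 1642 comparisons of the 84 named called genes kept their direction and call, 147 kept the direction only and 3 reversed.

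Leaving out 1 library at a time gave 208 to 273 genes higher and 293 to 407 lower, 0 to 7 calls between the CD3E classes and 15 to 121 genes that differed between stages. *IL22* in cells chosen by the *IL17* genes differed by 24.0 to 30.1 points under the same omission, and by 23.3 points after thinning, with the exact permutation p at its smallest possible value of 0.0625. With no minimum level, 281 genes were higher in NB and 407 in AD. The share of cytokine-positive cells was 1.08% at 1 UMI or more, 0.505% at 3 or more and 0.443% after thinning. The NB minus AD difference in the colon, as a share of *CD3E*+ cells, was 0.0618 points and turned to -0.226 points at 1 UMI or more. The comparison of stages in cells with *CD3D* as well could not be made in the duodenum and jejunum, with 6 and 8 such NB cells. The cecum had 23 such NB and 115 such AD cells but was not compared alone.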

Other observations

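Within the NB rectum the make-up of the 3 cytokines differed between cells with *KIT* and no *CD3D* and cells with *CD3D* and no *KIT*, classes formed after the data were seen and given without a test. The 20 cells with *KIT* had 63.0% of their cytokine UMIs from *IL17F*, 23.5% from *IL17A* and 13.5% from *IL22*. The 92 cells with *CD3D* had 27.6, 47.5 and 24.9%. *IL22* was detected in 30.0% of the former and 78.3% of the latter, at median depths of 5599 and 10826.5 UMIs. *IL17A* was detected in 9 of the 20 *KIT* cells and in 18 of the 92 *CD3D* cells, the reverse of the order of its UMI shares. The 1461 *IL17A* UMIs of the *CD3D* cells thus came from 18 cells. In the NB rectum 1 cytokine-positive cell held 368 of the 2041 *IL17A* UMIs, and its class is not reported here. In the NB cecum *IL22* gave 31.1% of the cytokine UMIs of 150 such *KIT* cells and 40.7% of those of 9 such *CD3D* cells, in the same order as in the rectum. In the NB jejunum the order was the other way, with 81.1% in 34 *KIT* cells and 55.6% in 5 *CD3D* cells, the latter resting on 18 UMIs. In the AD colon *IL22* gave 60.2% in 7 *KIT* cells and 31.1% in 53 *CD3D* cells, but 1 cell held 73 of the 80 *IL22* UMIs of the former, and the order rests on it.

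The gene with the smallest adjusted p for a difference between stages, named after its value was seen, was *HOPX*, a homeodomain gene. It was at a log2 fold change of 1.71 in NB and -1.13 in AD (adjusted p = 0.000114 in edgeR). *TMIGD2*, a costimulatory receptor gene (2.61 and -0.29), and *RUNX3*, a lineage factor of cytotoxic and innate lymphocytes (0.61 and -1.33), were also among the 16 with a larger value in NB. In the liver and salivary gland the cytokine UMIs of the 4 and 2 cytokine-positive cells were all of *IL17F*.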
